A study of Xenopus tropicalis with 11 samples.

Results

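The places bound by Smad2/3 in the early gastrula of the frog Xenopus tropicalis were compared with the places that the co-repressor Tle occupied earlier, in the stage 8 blastula. A Smad2/3 peak was placed in the group with early Tle when it overlapped a Tle peak by at least 1 base. Of the 480 Smad2/3 peaks, 195 met this rule and 285 did not. On the Tle side, 196 of 37919 peaks were involved. Both lists come from ChIP-seq, in which DNA bound by a protein is recovered with an antibody and sequenced. The Tle list (anti-TLE antibody) rests on 1 library of stage 8 whole embryos of the Nigerian strain, with an input DNA sample of its own and no genetic change or drug named in the labels. Embryos of that strain also gave the Foxh1 lists of stage 8 and stage 9 (2 pooled replicates each) and the Foxa list of stage 10.25 (1 library). The Smad2/3 list and another Foxh1 list, called gastrula Foxh1 here, are the authors' reanalysis of samples of an earlier series, both named for 1 early gastrula stage, numbered after the 10.25 of the Foxa list. Their strain and replicate number: not given in the sources used here.

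Nodal ligands signal through receptor kinases that phosphorylate Smad2 and Smad3. These then enter the nucleus with Smad4 and bind chromatin together with partner factors. Foxh1, a forkhead factor that the egg supplies, is the best known of these partners, and Nodal signals set up mesoderm and endoderm in the frog embryo. Tle proteins, of the Groucho family, have no DNA-binding domain. They are brought to DNA by factors such as Tcf/Lef and forkhead proteins, and they recruit histone deacetylases. Foxa factors are forkhead proteins of endoderm and organizer. Since whole embryos were used, peaks that share a place were not shown to be in the same cells, and the peaks compared here lie at different times.

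The comparison asks which of the later Nodal effector sites had carried the co-repressor before gastrulation. Early Tle was present at 195 of 480 Smad2/3 peaks (40.6%, Wilson 95% interval 36.3 to 45.1%). The same held for 13.6% of all stage 10.25 Foxa peaks and 56.4% of all gastrula Foxh1 peaks. The Smad2/3 share thus lay between those of the other lists of similar age. These lists differ in length, with 40925 Foxa, 1290 gastrula Foxh1 and 480 Smad2/3 peaks, so their shares are not on a par. In the other direction, 0.517% of the Tle peaks (0.450 to 0.594%) met a Smad2/3 peak. There were 196 overlapping pairs, because 1 Smad2/3 peak met more than 1 Tle peak. Near the limit of the rule, the smallest overlaps were 13, 41 and 55 bases. Just outside it, the Smad2/3 peaks closest to a Tle peak had gaps of 0 and 46 bases, and the next one of 253 bases. These intervals, like those below, cover the counting error of peaks only. Each factor has a single list at each time, which leaves the variation among embryos unmeasured, and the sequencing depth is unknown.

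Smad2/3 peaks with and without early Tle differed above all in their Foxh1 history. Foxh1 had been found at stage 8 under 174 of the 195 Smad2/3 peaks with Tle (89.2%, 84.1 to 92.8%). It had been found under 49 of the 285 without Tle (17.2%, 13.3 to 22.0%). The difference of 72.0 percentage points had a Newcombe 95% interval of 65.0 to 77.4, which leaves out 0. Over the whole Tle list, 43.8% of the peaks had stage 8 Foxh1, so the places with later Smad2/3 held it more often than Tle peaks at large. Between Tle peaks with and without Smad2/3 the shares were 88.8 and 43.5%, a difference of 45.2 points. Read from the Smad2/3 side, Tle was found at 78.0% of the Smad2/3 peaks with stage 8 Foxh1 and at 8.17% of those without it.

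Foxh1 of the later stages was also more frequent where Tle had been. Stage 9 Foxh1 was present at 191 Smad2/3 peaks with Tle (97.9%, 94.8 to 99.2%) and at 163 without Tle (57.2%, 51.4 to 62.8%). That was a difference of 40.8 points (34.3 to 46.7). Gastrula Foxh1, which is of the same stage as the Smad2/3 list, was present at 168 peaks with Tle (86.2%, 80.6 to 90.3%) and at 92 without (32.3%, 27.1 to 37.9%). The difference was 53.9 points (46.0 to 60.5). In the full Tle list stage 9 Foxh1 was present at 33.4% and gastrula Foxh1 at 1.91% of the peaks. These shares are not on a par, because the gastrula Foxh1 list holds 1290 peaks, against 28611 at stage 8 and 29935 at stage 9. Once a Smad2/3 peak had stage 8 Foxh1, gastrula Foxh1 was present at 89.1% of the peaks with Tle and 83.7% of those without, and the interval of this difference (5.41 points, -4.15 to 18.7) includes 0. Where Foxh1 was present at stage 9 without stage 8, gastrula Foxh1 was present at 12 of 18 peaks with Tle (66.7%) and 38 of 115 without (33.0%), a difference of 33.6 points (8.99 to 52.4).

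**Figure D1:**
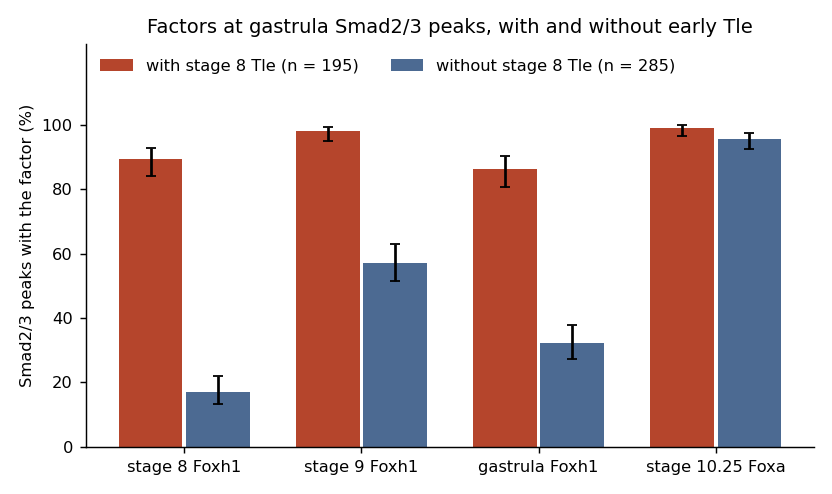
Share of gastrula Smad2/3 peaks, in percent, that overlapped a Foxh1 peak of stage 8, stage 9 or the gastrula or a stage 10.25 Foxa peak, for the 195 peaks with and the 285 without stage 8 Tle. Bars are shares and lines are Wilson 95% intervals. The gap is widest for stage 8 Foxh1 (89.2 against 17.2%) and small for Foxa (99.0 against 95.4%).

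The full history shows how these shares arise. In it, a missing gastrula Foxh1 means no peak in that far shorter list. Foxh1 at all 3 stages was the most frequent state, at 196 Smad2/3 peaks, of which 155 (79.1%, 72.9 to 84.2%) had Tle. These made up 79.5% of the peaks with Tle and 14.4% of those without. The 25 peaks whose Foxh1 was seen at both blastula stages and was missing from the gastrula list had Tle in 18 cases (72.0%, 52.4 to 85.7%). Where Foxh1 first appeared at stage 9 and was found again in the gastrula, Tle was present at 12 of 50 peaks (24.0%, 14.3 to 37.4%). Where Foxh1 was found at stage 9 alone, it was present at 6 of 83 (7.23%, 3.35 to 14.9%). The same histories in regions without Smad2/3 had Tle at 71.6, 60.6, 11.0 and 15.0%, in this order. These regions join overlapping peaks of all 6 lists. Of the 14 Smad2/3 peaks with gastrula Foxh1 alone, 1 had Tle. Stage 8 Foxh1 alone occurred at 2 Smad2/3 peaks, 1 of them with Tle, and the combination of stage 8 and gastrula without stage 9 did not occur.

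Smad2/3 peaks without a Foxh1 peak of any stage were almost free of early Tle. Of these 110 peaks, 2 had Tle (1.82%, 0.500 to 6.39%), against 193 of the 370 with Foxh1 in at least 1 list (52.2%, 47.1 to 57.2%). Foxa peaks offer a comparison list. Among Foxa peaks with no Foxh1, Tle was found at 1.92% of the 104 with Smad2/3 and at 2.48% of the 29324 without, a difference of -0.556 points (-1.96 to 4.27). The 2 exceptions, singled out after their values were seen, are scaffold 2 from 109851591 to 109852117 and scaffold 6 from 82848683 to 82849747. Both were broad, at 527 and 1065 bases. Both had the same fold enrichment of 3.09 and the same −log10 p of 45.7. Such ties also occurred at other Smad2/3 peaks, for instance at a fold of 9.82 with a −log10 p of 39.8. Only 4 Smad2/3 peaks had a fold under 5, which was no planned limit, and 3 of these overlapped Tle, against 40.6% of all Smad2/3 peaks. So few peaks allow no comparison. The third of them, with a fold of 4.99, had Foxh1 at all 3 stages, unlike the 2 exceptions.

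**Figure D2:**
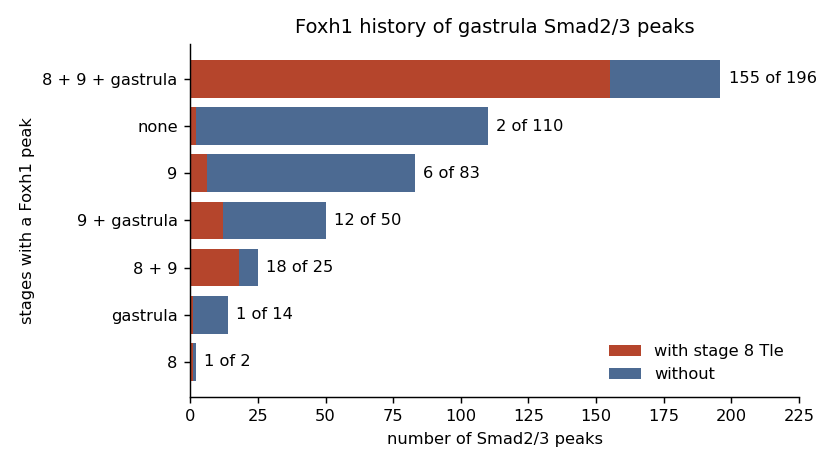
Number of gastrula Smad2/3 peaks by the stages at which Foxh1 was found there, split by early Tle. Labels give the peaks with Tle out of all peaks of that history. Tle made up 155 of the 196 peaks with Foxh1 at all 3 stages and 2 of the 110 without Foxh1.

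Foxa did not set the groups apart in the same way. Foxa was found at 193 of the 195 Smad2/3 peaks with Tle (99.0%, 96.3 to 99.7%) and at 272 of the 285 without (95.4%, 92.4 to 97.3%). The difference was 3.54 points, with an interval that just left out 0, and the interval included 0 under 6 of 7 alternative settings. Nearly all Smad2/3 peaks of either kind thus had Foxa, while 14.5% of the Tle list did. Of the 15 Smad2/3 peaks without Foxa, 2 had early Tle (13.3%, 3.74 to 37.9%), against 41.5% of the 465 with Foxa. Some of the 15 lay on scaffolds without any Tle peak.

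Where both groups had Foxh1, the Foxh1 peaks themselves were higher and broader at the places with Tle. At the 174 Smad2/3 peaks with Tle and stage 8 Foxh1, the authors' fold enrichment of the Foxh1 peak had a median of 26.4 (quartiles 20.1 and 33.5). At the 49 without Tle it was 17.4 (13.9 and 22.8). The area under the curve was 0.734 (95% interval 0.662 to 0.805). It is the probability that a peak drawn from the first group exceeds one from the second, and it is 0.5 where they do not differ. Foxh1 peak width differed more, with medians of 519 and 285 bases and an area of 0.840 (0.786 to 0.893). For stage 9 Foxh1 the median folds were 31.2 and 19.7 (area 0.734, 0.682 to 0.785). For gastrula Foxh1 they were 18.1 and 13.2 (0.625, 0.556 to 0.694). Stage 8 Foxh1 was not held equal in the stage 9 and gastrula comparisons. Among Smad2/3 peaks with gastrula Foxh1, it was present at 155 of 168 with Tle and 41 of 92 without.

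The fold enrichment of Smad2/3 itself was alike in position in both groups. It had a median of 9.29 with Tle (quartiles 7.61 and 12.1, range 3.09 to 26.1) and of 9.27 without (8.05 and 11.1, range 2.62 to 35.4). The area under the curve was 0.503 (0.451 to 0.556), so the interval allows a small difference either way. Both quartiles lay further out with Tle, while the range was wider without it. Across 3 classes of equal size by Smad2/3 fold the Tle share was 43.8% (36.3 to 51.5%), 32.5% (25.7 to 40.1%) and 45.6% (38.1 to 53.4%) from the lowest to the highest, with no steady trend. Within each of these classes the stage 8 Foxh1 difference was present, at 75.6, 68.9 and 70.9 points.

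The deposited −log10 p and the width did differ. The −log10 p of Smad2/3 peaks had a median of 35.5 with Tle and 30.0 without (area 0.596, 0.544 to 0.648). It depends on the read number in the peak as well as on the ratio to background. Smad2/3 peaks with Tle had a median width of 343 bases (quartiles 268 and 444) against 293 (236 and 364), with an area of 0.630 (0.578 to 0.681). A broader peak also has more room to meet a Tle peak. When the Smad2/3 summit had to lie inside the Tle peak, which takes the Smad2/3 width out of the rule, the width was still larger with Tle (area 0.630, 0.578 to 0.682). The Tle share rose over the classes of width, from 30.6% of the narrowest to 38.8 and 52.5%. Among the 2 narrower classes the fold was lower with Tle, with areas of 0.401 (0.309 to 0.494) and 0.408 (0.319 to 0.496). In the broadest class the area was 0.582 (0.494 to 0.670), on the other side of 0.5.

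Among the 196 peaks with Foxh1 at all 3 stages, fold and −log10 p had areas of 0.466 (0.366 to 0.567) and 0.494 (0.395 to 0.594) for Tle against no Tle, both intervals holding 0.5. The width area was 0.612 (0.520 to 0.705), so width differed here as well.

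**Figure D3:**
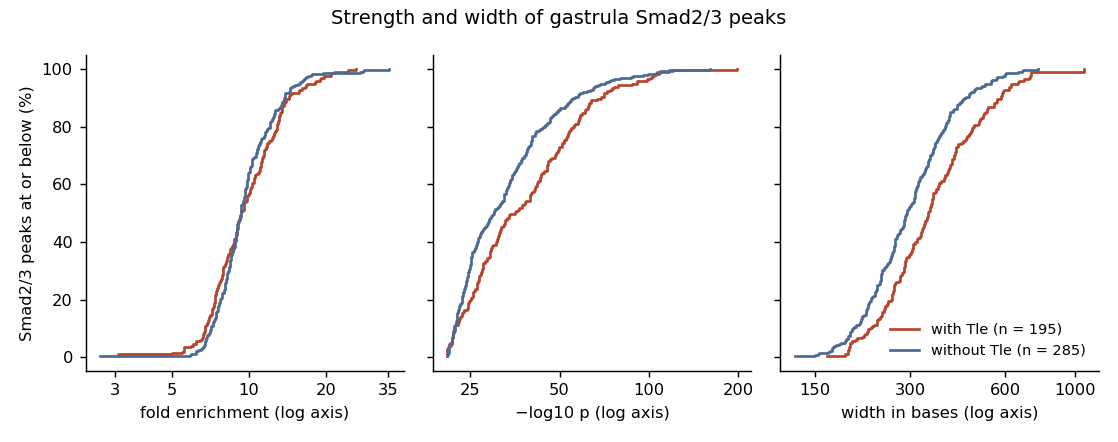
Cumulative share of Smad2/3 peaks, in percent, at or below a given fold enrichment, −log10 p or width in bases (log axes), for the 195 peaks with and 285 without early Tle. The fold medians are 9.29 and 9.27, while the curves of −log10 p and width with Tle lie to the right.

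High Smad2/3 folds were found both with and without an early Tle peak in the list. The 5 highest with Tle began with scaffold 1 from 202940577 to 202941194, with a fold of 26.1. Next came scaffold 53 from 75534 to 76192 with 24.5, and scaffold 1 from 55061675 to 55062301 with 21.4. The last were scaffold 8 from 105510781 to 105511234 and scaffold 2 from 31629094 to 31629656, each with 20.8. All 5 had Foxh1 at all 3 stages and Foxa, found at 79.5 and 99.0% of all Smad2/3 peaks with Tle. Their Tle peaks ranged from the percentile 54.3 to 96.0 of the Tle score, so they were not all high in the Tle list.

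The 5 highest without Tle had more varied histories, as did all peaks without Tle, of which 14.4% had Foxh1 at all 3 stages. The highest of all, on scaffold 7 from 123170862 to 123171453 with a fold of 35.4, had Foxh1 of stage 9 and of the gastrula. So did scaffold 8 from 82252401 to 82252744, with a fold of 27.0. The peak on scaffold 2 from 46667846 to 46668147 (28.1) had gastrula Foxh1 alone. The peak on scaffold 2 from 141561277 to 141561519 (27.9) had stage 8 Foxh1 alone, with the nearest Tle middle 302024 bases away. The peak on scaffold 3 from 5673183 to 5673582 (19.5) had Foxh1 at all 3 stages, and a Tle middle lay 2255 bases from its summit. Foxa was present at all 5, and at 95.4% of all Smad2/3 peaks without Tle. The files name no genes and no genome build, so genes near these places are not given.

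On the Tle side, the places that later held Smad2/3 lay mostly in the upper part of the Tle list. The score of the shared Tle peaks had a median of 16.9 (quartiles 8.29 and 38.9, range 3.02 to 134). Other Tle peaks had a median of 7.29 (5.28 and 13.5), with a highest score of 606. The area under the curve was 0.722 (0.681 to 0.762). The median percentile of the highest Tle peak at a shared place was 81.1. Of 10 classes of equal size, the highest held 68 of the 196 shared Tle peaks (34.7%), a Smad2/3 share of 1.79% (1.42 to 2.27%). The next held 35 (0.923%, 0.664 to 1.28%), and the lowest 7 (0.185%, 0.0894 to 0.381%). Of the 1000 highest Tle peaks, 24 met a Smad2/3 peak. The highest shared Tle peak ranked 238 of 37919.

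**Figure D4:**
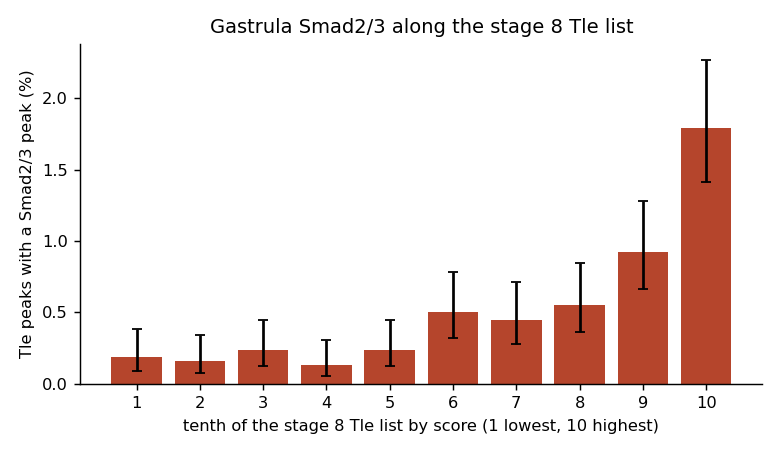
Share of stage 8 Tle peaks, in percent, that met a gastrula Smad2/3 peak, over 10 classes of equal size by the Tle score. Bars are shares and lines are Wilson 95% intervals. The share is 0.185% in the lowest class and 1.79% in the highest. Peaks of equal score were split between neighbouring classes at the low end.

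Foxh1 moved with the Tle score along the same classes, with stage 8 Foxh1 at 11.2% of the lowest and 90.0% of the highest. The rise was not even, with 8.68% in the second lowest class. Peaks tied at a score of 4.35 were split over the 3 lowest classes, so the values of these classes depend on that split. Among Tle peaks with stage 8 Foxh1 the score was higher with Smad2/3 than without, with medians of 19.2 and 12.7 (area 0.611, 0.567 to 0.656). Among Tle peaks with Foxh1 at all 3 stages the medians were 21.2 with Smad2/3 (154 peaks) and 20.0 without (529 peaks), and the area was 0.500 (0.448 to 0.551). For this history, no difference in Tle score could be shown. The 22 shared Tle peaks without stage 8 Foxh1 had a median score of 7.29, below the 19.2 of those with it. Their scores ranged from 3.29 to 92.5. The 2 exceptions without Foxh1 named above were among the high ones, with scores of 61.3 and 92.5.

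Of all 196 shared Tle peaks, 154 had Foxh1 at all 3 stages and 194 had Foxa. The 3 shared Tle peaks of highest score had both. The first was scaffold 5b from 1540856 to 1541694, with a score of 134. It was followed by scaffold 2 from 83151487 to 83152099, with 127, and by scaffold 1 from 88259920 to 88261022, with 123. Their Smad2/3 peaks were of ordinary height, with folds of 8.44, 9.12 and 8.20, all below the median of the Smad2/3 list. The distance from summit to Tle middle was 24, 87 and 160 bases.

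Where the peaks met, the overlap that defines a shared place itself limited how far apart their centres could lie. Median widths there were 343 bases for Smad2/3 and 364.5 for Tle. The Tle list has no summits, so the distance was taken from the Smad2/3 summit to the middle of the Tle peak. Its median was 53 bases (95% interval 47 to 67; quartiles 25 and 99; highest 598). It was at most 50 bases at 89 places (45.6%), at most 100 at 147 (75.4%) and at most 200 at 178 (91.3%). The Smad2/3 summit lay inside the Tle peak at 184 of the 195 places (94.4%). The median overlap of 265.5 bases covered 87.6% of the Smad2/3 peak. Shared places in the upper and lower 50% by Tle score had like medians, 56 and 52 bases, and those with and without stage 8 Foxh1 both had 53.

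The Foxh1 summits lay closer to the Smad2/3 summits than the Tle middles did. At Smad2/3 peaks with Tle the median distance was 32 bases to the stage 8 Foxh1 summit (27 to 36), 31 to stage 9 (24 to 39) and 23.5 to the gastrula (21 to 32). The Foxa middle lay at 49 bases (40 to 57). A middle is less exact than a summit, so values for Tle and Foxa are not on a par with those for Foxh1. From Tle middles to stage 8 Foxh1 summits the median was 57.5 bases (46 to 68) at the 174 Tle peaks with Smad2/3 and stage 8 Foxh1. It was 43 (42 to 44) at the 16420 Tle peaks with stage 8 Foxh1 and no Smad2/3. The latter Tle peaks were narrower, with a median width of 328 against 380.5 bases.

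Smad2/3 peaks without Tle were seldom near misses. The nearest Tle middle lay a median of 11896 bases from the Smad2/3 summit (9922 to 13896), over the 269 peaks on scaffolds with any Tle peak. It was within 1 kb for 17 of the 285 (5.96%), within 5 kb for 91 (31.9%) and within 20 kb for 177 (62.1%). The 16 others were on scaffolds without a Tle peak. The median was 9985 bases with stage 8 Foxh1, 12314 with stage 9 but no stage 8 Foxh1, and 13189 without Foxh1, and the intervals of these medians overlap. The shortest distances were 249 bases, on scaffold 1 from 202942669 to 202942941, and 493 bases, on scaffold 5 from 2400100 to 2400287. The longest besides the peak on scaffold 2 named above was 215308 bases, on scaffold 4 from 13164118 to 13164478.

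**Figure D5:**
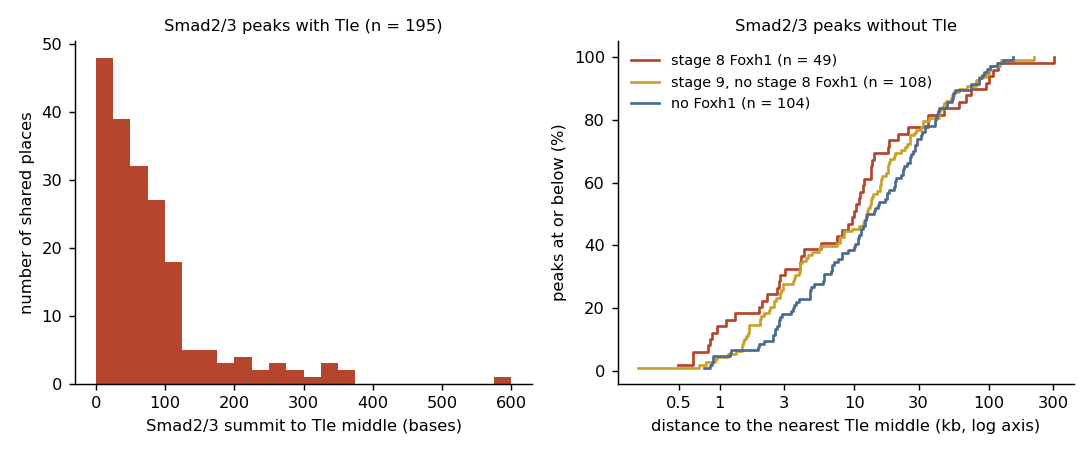
Left, number of shared places by the distance from the Smad2/3 summit to the Tle middle in bases (bins of 25 bases). Right, cumulative share in percent of Smad2/3 peaks without Tle by the distance to the nearest Tle middle in kb (log axis), split by Foxh1 history. Distances at shared places have a median of 53 bases, and those of the peaks without Tle a median of 11896 bases. The split by overlap keeps the former short, so the gap between them is no separate result.

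Smad2/3 peaks with early Tle were more often clustered. A peak was called clustered when the summit of another Smad2/3 peak lay within 20 kb. This held for 77 of the 195 peaks with Tle (39.5%, 32.9 to 46.5%) and 56 of the 285 without (19.6%, 15.5 to 24.7%), a difference of 19.8 points (11.6 to 28.0). Peaks of 1 cluster are not independent, and with 1 peak per cluster this difference was 11.7 points (4.77 to 19.4). With 5 kb in place of 20 kb it was 11.0 points. Read the other way, by the highest peak of each cluster, 29 of 49 clusters (59.2%) and 118 of 347 single peaks (34.0%) had Tle, a difference of 25.2 points (10.3 to 38.7). Among the peaks with Foxh1 at all 3 stages the clustered shares were 43.2% with Tle and 26.8% without, and the interval of that difference (16.4 points, -0.486 to 30.0) includes 0.

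Clusters were divided between uniform and mixed ones. Of the 49 clusters of at least 2 Smad2/3 peaks, 14 had Tle at every peak, 10 at none and 25 at some. Tle was present at 57.9% of their peaks, and the division varied with cluster size. Of the 27 clusters of 2 peaks, 9 had Tle at every peak, 9 at none and 9 at 1 peak. The clusters of 4 peaks had Tle at 32 of their 52 peaks (61.5%). All 13 of these clusters had Tle at 1 peak or more, 2 of them at every peak. Whether these counts, or those of all 49 clusters, differ from what the Tle shares and cluster sizes alone would give was not tested. The surroundings also differed in Tle itself. Another Tle peak, not the overlapping one, lay within 20 kb of 89.7% of the Smad2/3 peaks with Tle and of 62.1% of those without (27.6 points, 20.2 to 34.4).

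The 3 clusters with the most Smad2/3 peaks, with ties broken by summed fold, were examined peak by peak. On scaffold 5 from 118173262 to 118191134, 4 Smad2/3 peaks with folds of 16.1, 12.9, 11.7 and 14.5 followed each other. The first 2 had Tle and the last 2 did not, although all 4 had stage 9 and gastrula Foxh1 and 3 had stage 8 Foxh1. On scaffold 3 from 5663317 to 5684290 the order was reversed: the first 2 (folds 13.4 and 19.5) had no Tle, and the last 2 (7.43 and 12.2) had Tle at percentiles of 93.9 and 93.1. All 4 had Foxh1 at every stage. On scaffold 1 from 55046654 to 55062301, all 4 peaks had Tle, with Foxh1 at every stage and folds of 7.69, 12.8, 9.57 and 21.4. Their Tle percentiles ranged from 14.6 to 78.7. Neighbouring Smad2/3 peaks with the same Foxh1 history thus differed in Tle in the cluster on scaffold 3, and had Tle throughout in the one on scaffold 1.

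Gastrula Foxh1 peaks give the nearest comparison for whether early Tle goes with Smad2/3 beyond Foxh1. Of the 260 gastrula Foxh1 peaks with Smad2/3, 167 had Tle (64.2%), against 560 of the 1030 without (54.4%), a difference of 9.86 points (3.15 to 16.2). The interval included 0 with 1 gastrula Foxh1 peak per cluster (5.02 points, -2.67 to 12.4) and with the upper 50% of the Smad2/3 list (6.22 points, -2.21 to 14.1). When the Tle and the Foxh1 peak each had to cover 50% of the other, the difference was 17.7 points (11.0 to 24.3). Gastrula Foxh1 peaks with Smad2/3 were higher, with a median fold of 16.2 against 9.99. Within 3 classes of equal size by this fold the difference was -1.26 (-17.9 to 17.2), 2.07 (-11.3 to 15.0) and -4.01 points (-12.7 to 4.34) from the lowest to the highest. Each of these intervals includes 0. Those of the lowest and middle classes also include the pooled 9.86 points, so they show neither a difference nor its absence. That of the highest class lies below 9.86. Split by stage 8 Foxh1 in place of fold, the difference was 8.05 points with it (1.04 to 14.2) and 11.4 without it (2.45 to 23.2). Stage 8 Foxh1 was far more telling for Tle: 72.2% of the gastrula Foxh1 peaks with it and 11.1% of those without it had Tle, a difference of 61.1 points (56.3 to 65.1). That share of stage 8 Foxh1 was itself much the same with and without Smad2/3 (75.4 and 73.8%, difference 1.60 points, -4.56 to 7.18).

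Among stage 8 Foxh1 peaks the Tle share was 77.7% with Smad2/3 (224 peaks) and 58.1% without, a difference of 19.5 points (13.6 to 24.5). By classes of Foxh1 fold it was 10.1 points (-6.59 to 26.2), 9.71 points (-5.62 to 22.7) and 8.83 points (2.45 to 13.4) from the lowest to the highest. The highest class, with 151 of the 224 peaks, is the one whose interval leaves out 0. Among stage 9 Foxh1 peaks the Tle share was 54.1% with Smad2/3 (353 peaks) and 42.3% without, a difference of 11.8 points (6.53 to 16.9). By classes of stage 9 fold it was -9.99 (-19.7 to 5.62), -5.06 (-14.7 to 6.23) and 6.19 points (-0.0729 to 12.0). All of these class intervals include 0. Foxh1 fold moved with both Tle and Smad2/3, and its part in the pooled differences was not tested beyond these classes.

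Joining peaks that overlap, from all 6 lists, into single regions allows the same comparison at a fixed Foxh1 history. This history is the presence of Foxh1 peaks only, and their fold was not held equal. Foxh1 peaks with Smad2/3 had higher median folds than those without in all 3 Foxh1 lists. The medians were 24.4 against 16.6 at stage 8, 26.5 against 15.6 at stage 9 and 16.2 against 9.99 in the gastrula. With Foxh1 at all 3 stages, Tle was present in 79.6% of the 196 regions with Smad2/3 and 71.6% of the 749 without (8.03 points, 1.10 to 14.1). With Foxh1 of stage 9 plus gastrula, and none of stage 8, the shares were 22.4% of 49 and 11.0% of 209 regions (11.4 points, 0.791 to 25.3). With Foxh1 at stage 9 alone the difference went the other way, at 6.17% of 81 and 15.0% of 11858 regions (-8.84 points, -12.4 to -1.34). With Foxh1 at stages 8 and 9 alone, 74.1% of 27 and 60.6% of 16510 regions had Tle, and the interval of the difference (-5.32 to 26.2 points) includes 0. The relation of Smad2/3 to early Tle thus had a different sign in different histories, and these differences between histories were not tested against each other.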

How the data were processed

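ChIP-seq peak lists of whole embryos were used for Tle (stage 8), Foxh1 (stages 8 and 9) and Foxa (stage 10.25), with 2 lists of the whole series for gastrula Foxh1 and Smad2/3. RNA polymerase II and input samples were not analysed here. The submitters' processing notes name MACS2 2.0.10, HOMER 4.7, Bowtie 1.0.0 and SAMtools. Which step each tool served, the controls, the thresholds and the genome build: not given in the sources used here. The Tle library was made with another kit than the rest, per the labels. For Foxh1 and Smad2/3 the deposited lists give a fold enrichment ratio, a −log10 p, a summit and a score, which is 10 times the −log10 p rounded down. The deposited score of the Tle and Foxa lists has no stated definition, and it was ranked within each list only.

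Overlaps of at least 1 base, Wilson and Newcombe intervals for shares and their differences, Mann-Whitney areas under the curve with Hanley-McNeil intervals, and order-statistic intervals of medians were computed with scipy 1.17.1, pandas 2.3.3 and numpy 2.4.6 under Python 3.11.15, and drawn with matplotlib 3.10.9. A difference was called where its 95% interval left out 0 (0.5 for areas). Overlaps were checked on real and planted peaks, and the Wilson, Newcombe and Hanley-McNeil intervals on simulated independent draws. These draws had no ties and groups of equal size, so unequal groups, tied scores and extreme shares were not covered. Intervals of medians were not checked, and real peaks are not independent draws. No p-values were computed, since a peak is no replicate and neighbours may share their state. Of the alternatives, 93 were planned and 8 added after the data were examined. Peaks named are the 5 highest by fold with and without Tle, the 3 shared Tle peaks of highest score, the 3 clusters of most peaks (ties broken by summed fold, a rule added after the data were examined), and the 2 nearest to and 2 farthest from Tle. The members, lists and comparisons were chosen with earlier results of these data known. Positions follow the deposited lists and start at 1.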

Additional observations from a re-analysis of the deposited data

How the results depend on the processing

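Of 93 planned and 8 added alternatives, 80 left a result within its interval or on the same side of its call. The stage 8 Foxh1 difference kept its direction and its call in all 17 (60.1 to 81.7 points), the stage 9 difference in all 10 (33.9 to 43.5 points) and the Smad2/3 width in all 7 (areas of 0.589 to 0.686). Unless a cause is given, it was not tested. The Tle share of Smad2/3 peaks was 30.6% when centres had to lie within 100 bases, 30.0% when each peak had to cover 50% of the other and 32.7% with the upper 50% of the Tle list, since each setting admits fewer Tle peaks. With centres within 100 bases the median distance was 41 bases, a limit set by the rule, and with the upper 50% of the Tle list the median percentile was 75.3 of that shorter list. The area for Smad2/3 strength was 0.596 and past the call with −log10 p in place of fold, and fell to the other side of 0.5 in the narrow and middle width classes (0.401 and 0.408). The clustered difference was 16.4 points and no longer called among peaks with Foxh1 at all 3 stages, and the gastrula Foxh1 difference was 5.41 points among peaks with stage 8 Foxh1. Both were added later. The Foxa difference lost its call with centres within 100 bases (2.54 points), an overlap of 50% (2.48), the summit inside the Tle peak (3.31), the upper 50% of the Smad2/3 list (3.71) and 1 peak per cluster (3.06), and turned to -0.540 points with the Foxa middle within 100 bases of the summit. The Tle difference of gastrula Foxh1 peaks kept its call in 4 of 9 alternatives. There it ranged from 6.87 points with the upper 50% of the Tle list to 17.7 with an overlap of 50%. It lost its call in the others: 6.22 points with the upper 50% of the Smad2/3 list, 5.02 with 1 peak per cluster, and -1.26, 2.07 and -4.01 in the 3 fold classes. No paired analysis was possible because there is 1 list per factor and stage. Leaving out a replicate was not possible for the same reason. The unknown depth limits what a missing peak can show.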
